A study of Mus musculus with 6 samples.

Results

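The tropomyosins Tpm1, Tpm2, Tpm3 and Tpm4, the calponins Cnn1, Cnn2 and Cnn3, caldesmon (Cald1), the myosin regulatory light chain Myl9 and the non-muscle myosin heavy chain Myh9 were followed through RNA sequencing of cells from mouse skin squamous cell carcinomas. They were taken by symbol from a table of 55481 genes, and summing the rows of repeated symbols left the log2 fold change of each of the 10 unchanged. The tumours had been raised with the carcinogen DMBA and the promoter TPA, and cells were isolated by Itga6, the integrin alpha 6 chain, and by CD80, a co-stimulatory ligand. The cells with high Itga6 and CD80 (Itga6hi CD80pos), which the submitters call stem-like, had 2 libraries, and the cells with low Itga6 and no CD80 (Itga6low CD80neg), called differentiated, had 2. The labels also hold a group with high Itga6 and no CD80, which was not analysed here, and no label gives the strain, age or sex of the mice or ties a replicate to an animal. The p-values therefore measure only the spread between these libraries, which may be technical.

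Actomyosin is the contractile system built of actin filaments and bipolar filaments of myosin. Tropomyosins are coiled-coil proteins that lie along actin filaments and set which myosins and which severing proteins can act on them, while calponins and caldesmon bind actin and restrain myosin. Phosphorylation of the regulatory light chain switches myosin on. Smooth muscle, pericytes and activated fibroblasts carry a contractile set of these genes, and keratinocytes use the non-muscle members for stress fibres, adhesion and movement.

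Myl9, Cnn1 and Cnn3 were lower in Itga6hi CD80pos than in Itga6low CD80neg under each of 5 scalings of the data. Myh9, Tpm3, Cald1 and Tpm2 were higher on the deposited values, and under none of the other 4 scalings did they pass. Tpm4, Cnn2 and Tpm1 did not pass under any of the 5. On deposited values, then, 4 of the 10 were called higher, beside 57% of all genes tested, and 3 lower, beside 9.48%. Within each gene family, where the scaling between libraries cancels, Myl9 held 0.319 ± 0.0788% of regulatory light chain transcripts in Itga6hi CD80pos, against 32.1 ± 0.900% in Itga6low CD80neg (SD, n = 2 each). Gm49909, an annotated gene, spans the other light chain genes Myl12b and Myl12a. With it counted as Myl12b, a choice made after the values were seen, the Myl9 shares were 0.150 ± 0.0350% in Itga6hi CD80pos and 19.6 ± 0.0961% in Itga6low CD80neg. Cnn3 held 11.0 ± 2.87% of calponin transcripts in Itga6hi CD80pos, against 49.3 ± 4.25% in Itga6low CD80neg. Tpm1 held 16.7 ± 0.616% of tropomyosin transcripts in Itga6hi CD80pos, against 29.5 ± 4.70% in Itga6low CD80neg. In such bulk samples, fewer cells of a type and less RNA per cell cannot be told apart.

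Values are TPM, transcript levels per length that the authors scaled to the same total of 1000000 for each library. TPM hold no read numbers, so the depth is unknown. Haemoglobin genes made up 0.0185% and 0.00621% of TPM in Itga6hi CD80pos, against 70.9% and 50.4% in Itga6low CD80neg. Although labelled as differentiated cancer cells, the Itga6low CD80neg libraries held 2546 and 7364 TPM of 9 keratinocyte markers and 9748 and 7040 TPM of 9 fibroblast markers. Over the 13474 genes tested the median log2 fold change was 1.27 on deposited TPM. Calls test each fold change against 0, not against that shift, so a gene below 1.27 can be called higher. Genes were called with limma on log2(TPM + 1) at a Benjamini-Hochberg adjusted p under 0.05. All 10 members passed the filter of 1 TPM in 2 libraries, Cnn1 through the Itga6low CD80neg libraries alone, so that it had to differ to be tested. Fold changes are Itga6hi CD80pos over Itga6low CD80neg on the log2(TPM + 1) scale, which understates the change of low genes. The other 4 scalings were median-of-ratios scaling, quantile normalization, TPM without haemoglobin genes, and TPM without mitochondrial, ribosomal protein, haemoglobin and keratin genes, with medians of -0.01, 0.27, 0.08 and 0.26. Under each of these, 0 members were called higher and 3 lower, beside 6.23% higher and 13.6% lower of all genes with median-of-ratios scaling, 10.7% and 11.3% with quantile normalization, 7.48% and 12.1% without haemoglobin genes, and 12.2% and 12.3% without the 4 classes. With replicate 1 of Itga6hi CD80pos left out, limma made no call (0 higher, 0 lower), while 4442 were higher and 1033 lower at an unadjusted p of at most 0.05. With replicate 2 of that group left out, there were 353 calls higher and 174 lower.

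The promoters of the members were searched for the sites at which serum response factor binds actin cytoskeleton genes, known as CArG boxes, and the 2 matches are shown because they fall in one gene that was lower and one that was not called. All 10 members matched in the RefSeq promoter table (GRCm38.p6), with 12 promoters of 300 bases, 250 before and 50 after the start. The match begins at position -161 from the start in Myl9 and at position -56 in Cnn2. The windows are chr2:156775273-156775342 and chr10:79988514-79988583, both on the plus strand and written from 5′ to 3′, with the CArG box in capitals.
Myl9: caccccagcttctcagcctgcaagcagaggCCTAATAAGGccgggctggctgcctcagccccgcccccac
Cnn2: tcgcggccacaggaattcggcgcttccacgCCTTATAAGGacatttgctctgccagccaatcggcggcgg
The CArG pattern is its own reverse complement, so a match counts for both strands, and 1.63% of all 32851 promoters of this length in the table hold one. Searched on both strands, CATTCC, the site of TEAD factors, was in 1 promoter each of Tpm1 and Cald1 and in 14.7% of all promoters. TATAAA was in 1 promoter each of Cald1 and Myh9 and in 13.6% of all promoters. The motifs searched do not overlap each other in these promoters. No match in Cnn1, Cnn3, Tpm2, Tpm3 or Tpm4 says only that these letters are not in those windows.

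**Figure D1:**
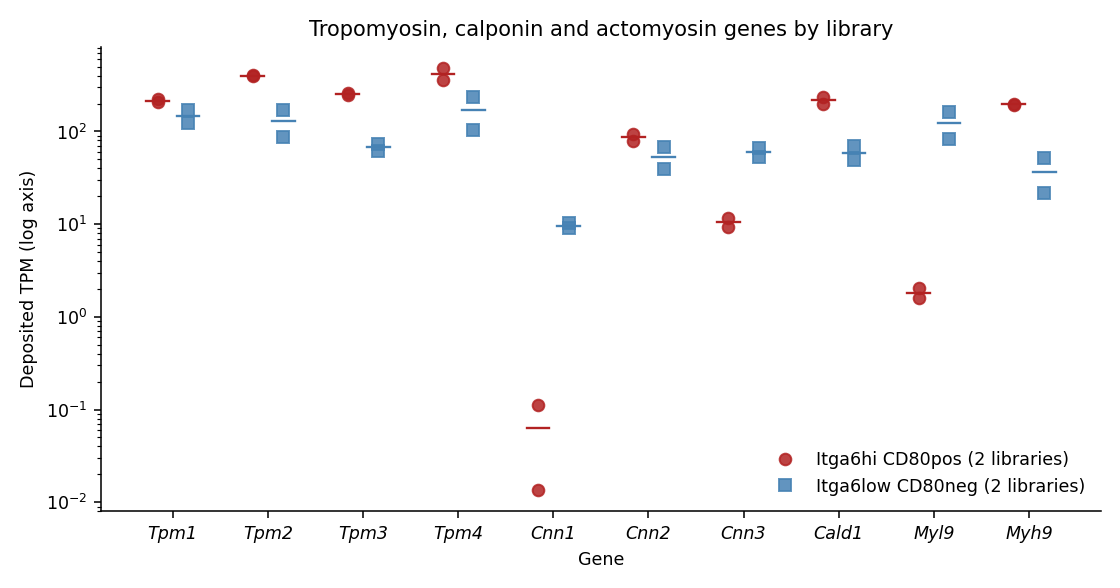
Deposited TPM (log axis) of the 10 genes, with a point for each library and a line at the group mean (2 libraries each). Cnn1, Cnn3 and Myl9 lie lower in both Itga6hi CD80pos libraries than in both Itga6low CD80neg libraries, and the other 7 lie higher. Of all tested genes, 12.9% lie lower and 73.5% higher in this way.

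On deposited TPM all 4 tropomyosins lay higher in both Itga6hi CD80pos libraries than in either Itga6low CD80neg library, as did 73.5% of all tested genes. Tpm2, the beta-tropomyosin gene (chromosome 4, 43514711 to 43523765, minus strand, GRCm38), stood at 392 and 409 TPM in Itga6hi CD80pos, against 86.8 and 170.6 TPM in Itga6low CD80neg. Tpm3 (chromosome 3, 90072649 to 90100902, plus strand), a gene of slow muscle and of many non-muscle forms, stood at 246 and 262 TPM in Itga6hi CD80pos, against 62.1 and 73.8 TPM in Itga6low CD80neg. These 2 were called higher, Tpm2 by 1.71 ± 0.52 (SE, adjusted p = 0.0328) and Tpm3 by 1.89 ± 0.39 (SE, adjusted p = 0.0117). Both lay above the median of all genes, Tpm2 by 0.44 and Tpm3 by 0.62, and 74.5% of tested genes had a lower fold change than Tpm3. Tpm4 (chromosome 8, 72134975 to 72153142, plus strand), a non-muscle form, stood at 362 and 478 TPM in Itga6hi CD80pos, against 104 and 234 TPM in Itga6low CD80neg. Tpm1 (chromosome 9, 67022590 to 67049406, minus strand), the alpha-tropomyosin gene, stood at 207 and 223 TPM in Itga6hi CD80pos, against 123 and 169 TPM in Itga6low CD80neg. Neither group's libraries overlapped those of the other, but the spread within Itga6low CD80neg was wide, since Tpm4 differed there 2.26-fold between the 2 libraries. The log2 fold change of Tpm4 was 1.41 ± 0.58 (SE) at an adjusted p of 0.0765, and that of Tpm1 was 0.57 ± 0.43 (SE) at an adjusted p of 0.279, so neither passed. Relative to the median of all genes, Tpm4 stood at 0.14 and Tpm1 at -0.70.

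The tropomyosin fold changes depended on the scaling, and their calls also on single libraries. Over the 5 scalings Tpm2 ranged from 0.14 to 1.71 and Tpm3 from 0.32 to 1.89, with the called value at the upper end each time. Tpm4 ranged from -0.16 under median-of-ratios scaling to 1.41. Tpm1 had a negative value under each of the other 4 scalings, none of them passing, down to -1.004 (adjusted p = 0.0596) under median-of-ratios scaling. Without Itga6hi CD80pos replicate 1 the calls of Tpm2 (adjusted p = 0.219) and Tpm3 (0.141) were lost, and so they were without its replicate 2 (0.222 and 0.139), while the fold changes stayed at 1.74 and 1.68 for Tpm2 and at 1.94 and 1.85 for Tpm3. Without Itga6low CD80neg replicate 2, Tpm1 (adjusted p = 0.0229) and Tpm4 (0.0151) passed as higher on deposited TPM.

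**Figure D2:**
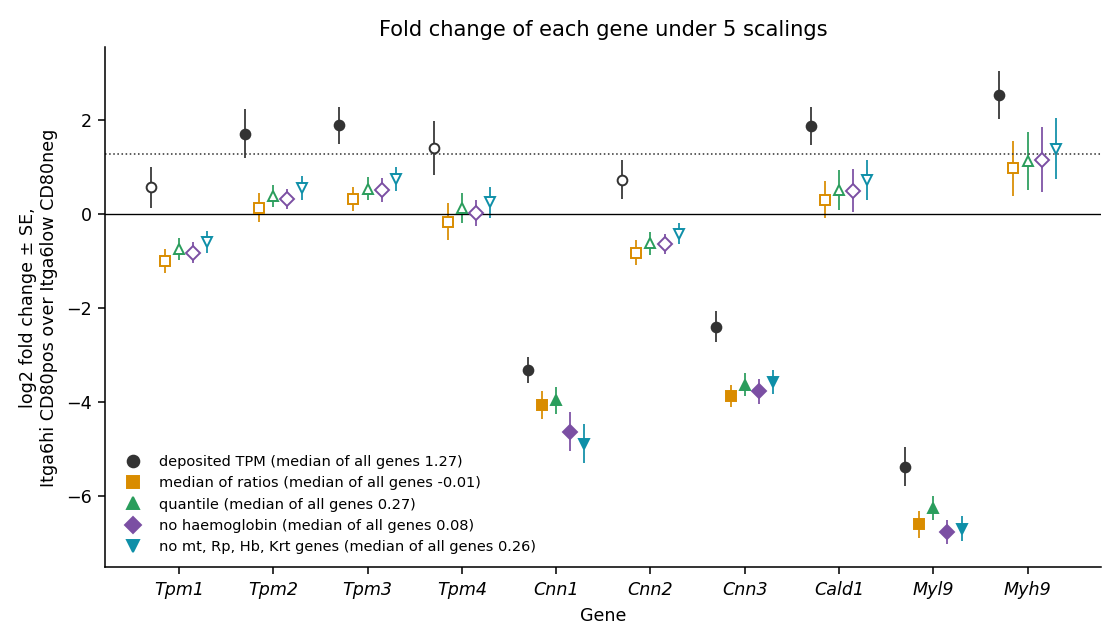
Log2 fold change ± SE (limma, 2 libraries each) of the 10 genes under 5 scalings; filled symbols passed an adjusted p under 0.05, open ones did not, and the dotted line is the median of all genes on deposited TPM (1.27). Cnn1, Cnn3 and Myl9 are filled and below 0 in all 5, and the other 7 genes are filled on deposited TPM at most.

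The make-up of the tropomyosin pool differed between the groups most in Tpm1. Tpm1 was 17.1% and 16.2% of tropomyosin transcripts in Itga6hi CD80pos, against 32.8% and 26.1% in Itga6low CD80neg. Tpm3 was 20.4% and 19.1% in Itga6hi CD80pos, against 16.5% and 11.4% in Itga6low CD80neg. Tpm2 was 32.5% and 29.8% in Itga6hi CD80pos, against 23.1% and 26.3% in Itga6low CD80neg. For these 3 the groups did not overlap, with the Tpm1 share lower and the other shares higher in Itga6hi CD80pos. Tpm4 was 29.99% and 34.9% in Itga6hi CD80pos, against 27.6% and 36.1% in Itga6low CD80neg, and here the groups overlapped. On deposited TPM, tropomyosin transcripts summed to 1290 ± 116 in Itga6hi CD80pos, against 512 ± 192 in Itga6low CD80neg (SD, n = 2 each). Unlike a share, this sum depends on the scaling between libraries. Without haemoglobin genes, Tpm1 lay lower in Itga6hi CD80pos, Tpm2 and Tpm3 lay higher, and Tpm4 overlapped.

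As ratios, each of the other tropomyosins stood higher relative to Tpm1 in both Itga6hi CD80pos libraries. The Tpm3/Tpm1 ratio was 1.19 and 1.17 in Itga6hi CD80pos, against 0.504 and 0.436 in Itga6low CD80neg. The Tpm2/Tpm1 ratio was 1.90 and 1.84 in Itga6hi CD80pos, against 0.704 and 1.01 in Itga6low CD80neg. On the log2 scale these ratios differed by 1.34 and 1.15. Their SDs were 0.0148 and 0.0343 in Itga6hi CD80pos, against 0.149 and 0.364 in Itga6low CD80neg. The Tpm4/Tpm1 ratio differed by 0.85, at 1.75 and 2.15 in Itga6hi CD80pos, against 0.841 and 1.38 in Itga6low CD80neg. The ratios to Tpm3 overlapped between the groups: Tpm2/Tpm3 was 1.59 and 1.56 in Itga6hi CD80pos, against 1.40 and 2.31 in Itga6low CD80neg, and Tpm4/Tpm3 was 1.47 and 1.83 in Itga6hi CD80pos, against 1.67 and 3.17 in Itga6low CD80neg. No p-value is given for a share or a ratio, because with 2 libraries a group the smallest p that an exact permutation test allows is 0.333. The table has 1 value per gene, so the forms that a tropomyosin gene makes from alternative starts and exons were not separated. GENCODE M21 lists 21 transcripts for Tpm1 and 16 for Tpm3.

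**Figure D3:**
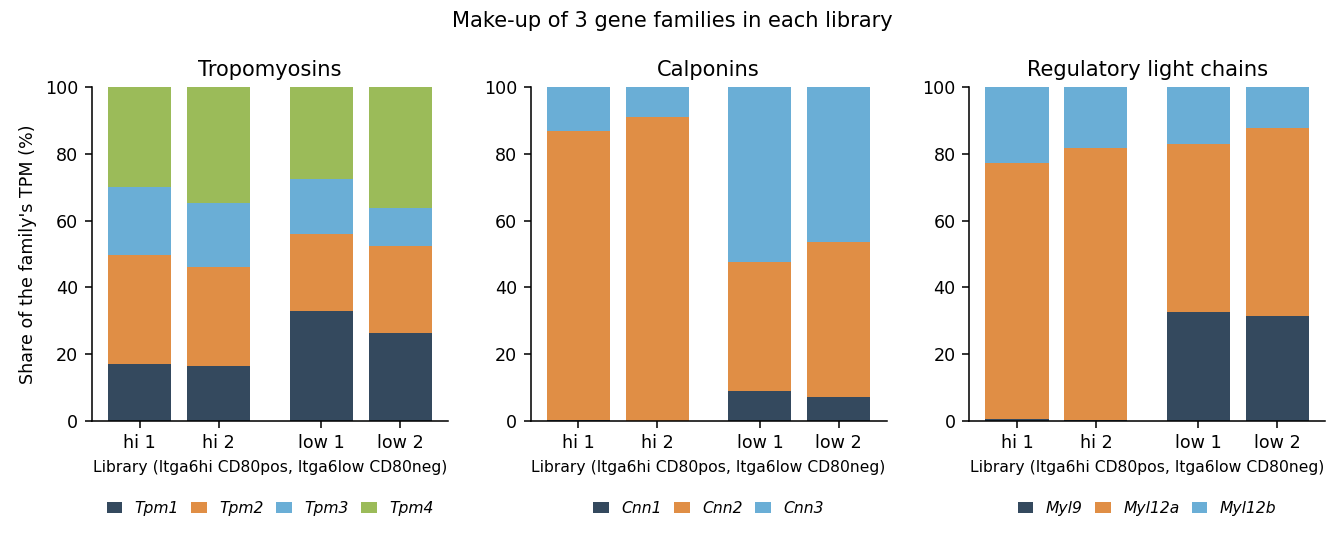
Share of each gene in the summed TPM of its family (%), in the 2 Itga6hi CD80pos libraries (hi) and the 2 Itga6low CD80neg libraries (low). The Tpm1, Cnn3 and Myl9 shares are smaller in both Itga6hi CD80pos libraries, and Myl9 is a sliver of 0.374% and 0.263% there.

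Among the calponins, Cnn1 and Cnn3 were lower and Cnn2 did not pass. Cnn1 (chromosome 9, 22099216 to 22109630, plus strand), the calponin of differentiated smooth muscle, stood at 0.112 and 0.0135 TPM in Itga6hi CD80pos, against 9.02 and 10.2 TPM in Itga6low CD80neg. Cnn3 (chromosome 3, 121426497 to 121458207, plus strand), an acidic calponin found in fibroblasts and other non-muscle cells, stood at 11.7 and 9.34 TPM in Itga6hi CD80pos, against 52.6 and 66.9 TPM in Itga6low CD80neg. Both were low in both Itga6hi CD80pos libraries with no overlap. Their log2 fold changes were -3.32 ± 0.27 for Cnn1 (SE, adjusted p = 0.00296) and -2.40 ± 0.33 for Cnn3 (SE, adjusted p = 0.00581). In rank by TPM among the 55481 genes of a library, Cnn3 was 6680 and 7250 in Itga6hi CD80pos, against 751 and 890 in Itga6low CD80neg. Cnn2 (chromosome 10, 79988584 to 79996062, plus strand), the calponin of epidermal and blood cells, stood at 78.0 and 94.5 TPM in Itga6hi CD80pos, against 38.9 and 67.3 TPM in Itga6low CD80neg. Its libraries did not overlap, but its log2 fold change of 0.73 ± 0.42 (SE, adjusted p = 0.171) did not pass.

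The lower Cnn1 and Cnn3 were called under all 5 scalings, whereas Cnn2 had a negative value that did not pass under each of the other 4, down to -0.82 with median-of-ratios scaling. Over the scalings Cnn1 ranged from -4.89 to -3.32 and Cnn3 from -3.87 to -2.40. Of the genes tested in all 5 scalings, 8.34% were called lower in each. Without Itga6hi CD80pos replicate 1 the adjusted p was 0.0563 for Cnn1 and 0.0854 for Cnn3, and without its replicate 2 it was 0.0520 and 0.0829, so both calls were lost. Without replicate 1 and without replicate 2 of that group, the log2 fold changes were -3.39 and -3.25 for Cnn1 and -2.54 and -2.25 for Cnn3. Cnn2 passed as higher without Itga6low CD80neg replicate 2 (adjusted p = 0.0250).

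Within the calponins, Cnn2 was the main form in Itga6hi CD80pos, at 86.8% and 91.0% of their transcripts, against 38.7% and 46.6% in Itga6low CD80neg. Cnn3 made up 13.0% and 8.99% in Itga6hi CD80pos, against 52.3% and 46.3% in Itga6low CD80neg. Cnn1 made up 0.125% and 0.0130% in Itga6hi CD80pos, against 8.97% and 7.08% in Itga6low CD80neg. None of these shares overlapped between the groups. The Cnn2/Cnn3 ratio was 6.65 and 10.1 in Itga6hi CD80pos, against 0.740 and 1.01 in Itga6low CD80neg, a difference of 3.25 on the log2 scale. On deposited TPM, summed calponin transcripts stood at 89.8 and 103.8 in Itga6hi CD80pos, against 100.5 and 144 in Itga6low CD80neg, and the groups overlapped. Unlike a share, this sum depends on the scaling between libraries. Without haemoglobin genes, Cnn1, Cnn2 and Cnn3 each lay lower in Itga6hi CD80pos with no overlap.

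Myl9 had the lowest fold change of the 10 members. Myl9 (chromosome 2, 156775420 to 156781658, plus strand), a regulatory light chain of smooth muscle and non-muscle myosin, stood at 2.06 and 1.59 TPM in Itga6hi CD80pos, against 83.2 and 161.6 TPM in Itga6low CD80neg. Its log2 fold change was -5.38 ± 0.42 (SE, adjusted p = 0.00280), and 0.646% of tested genes had a lower one. It ranked 11333 and 11775 by TPM in Itga6hi CD80pos, against 491 and 415 in Itga6low CD80neg. Over the 5 scalings its log2 fold change ran from -6.77 to -5.38, called lower each time. Leaving out Itga6hi CD80pos replicate 1 ended the call (adjusted p = 0.0531), and leaving out replicate 2 of that group did not (adjusted p = 0.0487).

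The other regulatory light chain genes, Myl12a and Myl12b, serve non-muscle myosin and did not share the Myl9 pattern on deposited TPM. Myl12a stood at 424 and 492 TPM in Itga6hi CD80pos, against 128 and 290 TPM in Itga6low CD80neg (adjusted p = 0.107). Myl12b stood at 125 and 110 TPM in Itga6hi CD80pos, against 43.2 and 62.6 TPM in Itga6low CD80neg (adjusted p = 0.0442). Myl9 made up 0.374% and 0.263% of the 3 genes' transcripts in Itga6hi CD80pos, against 32.7% and 31.4% in Itga6low CD80neg. The Myl9/Myl12a ratio differed by -7.25 on the log2 scale and the Myl9/Myl12b ratio by -7.17, and neither overlapped between the groups. A further row, Gm49909, spans the neighbouring Myl12b and Myl12a, carries the name Myl12b in GENCODE M21, and stood at 631 and 666 TPM in Itga6hi CD80pos, against 172 and 309 TPM in Itga6low CD80neg. With it counted as Myl12b, a choice made after the values were seen, Myl9 made up 0.175% and 0.125% in Itga6hi CD80pos, against 19.5% and 19.6% in Itga6low CD80neg.

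**Figure D4:**
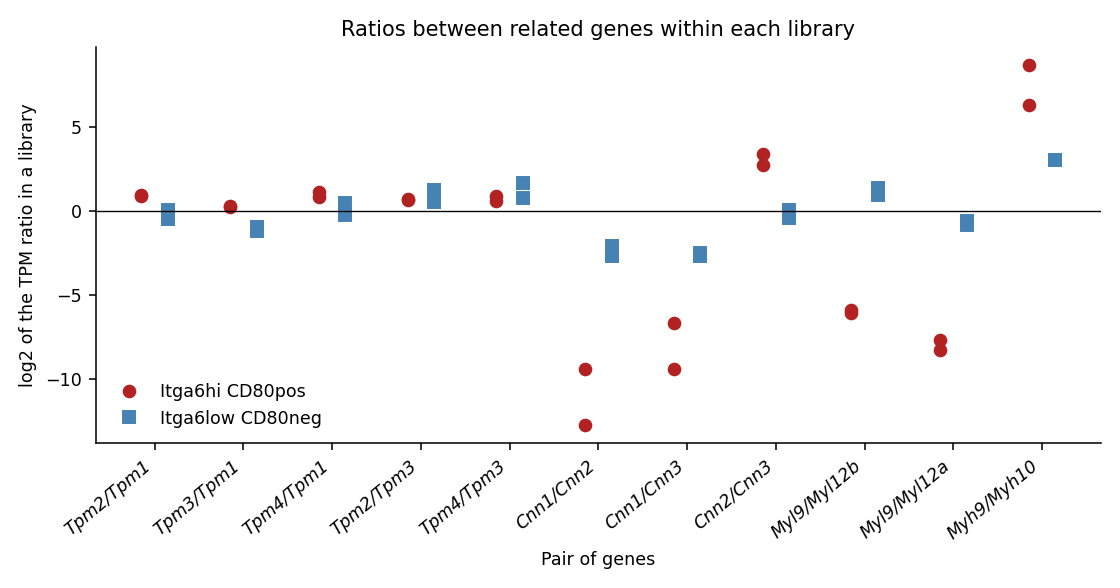
Log2 of the TPM ratio of each pair of related genes within each library, with the 2 Itga6hi CD80pos libraries (circles) left of the 2 Itga6low CD80neg libraries (squares). The ratios of Myl9 to Myl12b and to Myl12a lie at -5.92 or below in Itga6hi CD80pos and at -0.84 or above in Itga6low CD80neg, and the Tpm2/Tpm3 and Tpm4/Tpm3 ratios overlap.

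Myh9 had the highest fold change of the 10 members, and Cald1 was also called higher on deposited TPM. Myh9 (chromosome 15, 77760587 to 77842175, minus strand), the heavy chain of non-muscle myosin IIA, stood at 195.1 and 200.1 TPM in Itga6hi CD80pos, against 51.6 and 21.4 TPM in Itga6low CD80neg. Its log2 fold change was 2.53 ± 0.51 (SE, adjusted p = 0.0114), above that of 91.2% of tested genes. Cald1 (chromosome 6, 34598500 to 34775473, plus strand), which encodes the actin-binding protein caldesmon, stood at 235 and 199 TPM in Itga6hi CD80pos, against 69.1 and 49.3 TPM in Itga6low CD80neg. Its log2 fold change was 1.87 ± 0.41 (SE, adjusted p = 0.0132). In both genes the groups did not overlap, and the 2 Itga6low CD80neg libraries stood apart from each other, with replicate 2 at 0.416 times replicate 1 for Myh9 and 0.713 times for Cald1. The Myh9 fold change ran from 0.97 to 2.53 over the scalings, and that of Cald1 from 0.31 to 1.87, with no call outside deposited TPM. Without Itga6hi CD80pos replicate 1 the adjusted p was 0.111 for Myh9 and 0.158 for Cald1, and without its replicate 2 it was 0.101 and 0.124.

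Among myosin II heavy chains, Myh9 made up 97.8% and 97.0% of transcripts in Itga6hi CD80pos, against 80.0% and 72.8% in Itga6low CD80neg. Myh10, the heavy chain of non-muscle myosin IIB, made up 0.245% and 1.26% in Itga6hi CD80pos, against 10.1% and 9.10% in Itga6low CD80neg. Myh11, that of smooth muscle, made up 0.0188% and 0.0337% in Itga6hi CD80pos, against 8.04% and 9.93% in Itga6low CD80neg. The shares of these 3 genes did not overlap between the groups. Myh14, of non-muscle myosin IIC, overlapped at 1.92% and 1.74% in Itga6hi CD80pos, against 1.84% and 8.14% in Itga6low CD80neg. Among 4 actins, the smooth muscle gene Acta2 made up 0.640% and 0.617% in Itga6hi CD80pos, against 12.5% and 11.1% in Itga6low CD80neg. The cytoplasmic gene Actg1 made up 66.3% and 70.0% in Itga6hi CD80pos, against 47.5% and 50.7% in Itga6low CD80neg. The other cytoplasmic gene, Actb, made up 33.0% and 29.4% in Itga6hi CD80pos, against 38.2% and 35.6% in Itga6low CD80neg, so the shares of the 2 cytoplasmic actins differed in opposite directions.

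Taking haemoglobin out of the total changed which members' libraries kept apart. Counted by overlap on deposited TPM, 7 members lay higher and 3 lower in Itga6hi CD80pos with no overlap, beside 73.5% and 12.9% of tested genes. Without haemoglobin genes 3 lay higher, 5 lay lower and 2 overlapped, beside 35.4% and 32.3% of genes. The 3 higher were Tpm2, Tpm3 and Myh9, and the 5 lower were Tpm1, Cnn1, Cnn2, Cnn3 and Myl9. On that scale Tpm1 stood at 207 and 223 in Itga6hi CD80pos, against 424 and 341 in Itga6low CD80neg, TPM with the other genes rescaled to the full total. Tpm4 stood at 362 and 478 in Itga6hi CD80pos, against 357 and 472 in Itga6low CD80neg, and Cald1 at 235 and 199.5 in Itga6hi CD80pos, against 238 and 99.3 in Itga6low CD80neg. Myl9 stood at 2.07 and 1.59 in Itga6hi CD80pos, against 286 and 326 in Itga6low CD80neg.

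Among the other actin cytoskeleton genes, the lower calls, many of them in smooth muscle genes, were kept under all 5 scalings. Tagln2 was the only higher call kept. Of all genes tested in the 5 scalings, 5.67% were called higher and 8.34% lower in each. Of 8 tested smooth muscle contractile genes, 7 were lower and 1 was higher, and the 7 lower calls were kept under all 5 scalings. Tagln, the smooth muscle actin-binding protein transgelin, stood at 1.36 and 1.46 TPM in Itga6hi CD80pos, against 160 and 284 TPM in Itga6low CD80neg, a log2 fold change of -6.47. Actg2, an enteric smooth muscle actin, stood at 0.396 and 0.302 TPM in Itga6hi CD80pos, against 18.6 and 41.8 TPM in Itga6low CD80neg. Mylk, the kinase of the regulatory light chain, stood at 0.583 and 0.619 TPM in Itga6hi CD80pos, against 11.8 and 7.29 TPM in Itga6low CD80neg. Acta2 stood at 30.2 and 30.1 TPM in Itga6hi CD80pos, against 136 and 185 TPM in Itga6low CD80neg. Smtn, which encodes the actin-binding protein smoothelin, was the higher one and was not kept, at 53.6 and 51.8 TPM in Itga6hi CD80pos, against 15.7 and 9.53 TPM in Itga6low CD80neg (named after its value was seen). The median over the 8 was -2.29 on the log2 scale, beside 1.27 for all genes. Actg2, Mylk and 3 others of the 7 lower genes were under 1 TPM in both Itga6hi CD80pos libraries, so like Cnn1 they were tested only because they were higher in Itga6low CD80neg.

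The non-muscle lists differed in how many genes passed, and their counts stand beside the 57% of all tested genes called higher and 9.48% called lower. Of 8 non-muscle actin and myosin chain genes, 3 were called higher and 0 lower, with a median of 1.199, and Tagln2 alone was kept under all 5 scalings. Tagln2, a non-muscle relative of Tagln, stood at 912 and 786 TPM in Itga6hi CD80pos, against 87.0 and 132.8 TPM in Itga6low CD80neg. Actg1, at 3130 and 3412 TPM in Itga6hi CD80pos, against 516 and 843 TPM in Itga6low CD80neg, and Myl12b were the other 2. Of 13 actin crosslinkers and focal adhesion genes, 11 were higher and 1 lower, with a median of 1.72, and only the lower call was kept. Actn1, an alpha-actinin that crosslinks stress fibres, stood at 212 and 230 TPM in Itga6hi CD80pos, against 29.1 and 22.8 TPM in Itga6low CD80neg. Tgfb1i1, the focal adhesion adaptor Hic-5, was the lower one, at 0.903 and 1.64 TPM in Itga6hi CD80pos, against 21.3 and 14.3 TPM in Itga6low CD80neg. Pxn, the adaptor paxillin, stood at 28.3 and 34.3 TPM in Itga6hi CD80pos, against 7.38 and 2.96 TPM in Itga6low CD80neg.

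Of 11 tested actin turnover and capping genes, 9 were higher and 2 lower, with a median of 1.92, and the 2 lower calls were kept. Gsn, the filament-severing protein gelsolin, stood at 87.8 and 139 TPM in Itga6hi CD80pos, against 1069 and 461 TPM in Itga6low CD80neg. The other lower one was Pfn2, a profilin of neurons and other cells, at 2.06 and 1.72 TPM in Itga6hi CD80pos, against 5.72 and 11.8 TPM in Itga6low CD80neg (named after its value was seen). Pfn1, the actin monomer carrier profilin, stood at 1295 and 1190 TPM in Itga6hi CD80pos, against 187 and 337 TPM in Itga6low CD80neg, and Cfl1, the severing protein cofilin, at 1149 and 1120 TPM in Itga6hi CD80pos, against 177 and 387 TPM in Itga6low CD80neg.

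Of 7 Srf, Mrtf and actin-responsive genes, 4 were higher and 3 lower, and the 3 lower calls were kept. The median of that list was 1.56. Ccn2, a secreted matricellular protein, stood at 0.788 and 2.00 TPM in Itga6hi CD80pos, against 89.8 and 70.5 TPM in Itga6low CD80neg, and Fhl1, a LIM-domain protein of muscle, at 0.352 and 1.34 TPM in Itga6hi CD80pos, against 31.6 and 24.9 TPM in Itga6low CD80neg. The third lower one was Ccn1, a relative of Ccn2, at 61.8 and 107 TPM in Itga6hi CD80pos, against 464 and 222 TPM in Itga6low CD80neg (named after its value was seen). Fhl2, a LIM-domain co-factor, was higher, at 73.9 and 96.7 TPM in Itga6hi CD80pos, against 8.79 and 25.1 TPM in Itga6low CD80neg. Mrtfa, the actin-sensing co-activator of Srf, stood at 12.8 and 15.6 TPM in Itga6hi CD80pos, against 3.34 and 1.52 TPM in Itga6low CD80neg. Srf itself, the factor of the CArG box, stood at 48.4 and 48.8 TPM in Itga6hi CD80pos, against 15.8 and 11.3 TPM in Itga6low CD80neg (named after its value was seen). Without Itga6hi CD80pos replicate 1 no gene of these 5 lists was called, and without its replicate 2 only 1 smooth muscle gene and 2 Srf and Mrtf list genes were, all lower.

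**Figure D5:**
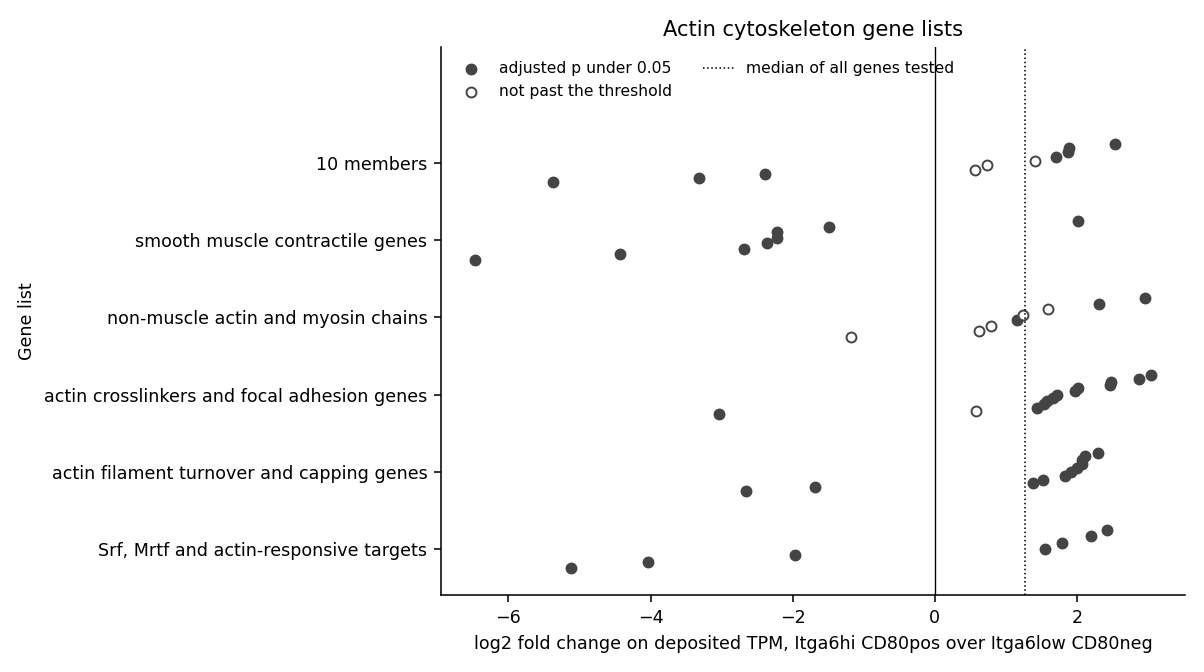
Log2 fold changes on deposited TPM of the 10 members and the tested genes of 5 actin cytoskeleton lists, filled where the adjusted p was under 0.05, with a dotted line at the median of all genes tested (1.27). Smooth muscle contractile genes lie to the left, with 7 of 8 lower, while the other lists lie mostly around or right of the dotted line.

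Markers of other cells differed between the groups as well. Their counts are on deposited TPM, where 57% of all tested genes were called higher and 9.48% lower. All 9 fibroblast markers were lower, with a summed level of 22.6 and 90.3 TPM in Itga6hi CD80pos, against 9748 and 7040 TPM in Itga6low CD80neg, and Col3a1 reached the highest level of them. All 9 keratinocyte markers were higher, at 59505 and 56877 TPM summed in Itga6hi CD80pos, against 2546 and 7364 TPM in Itga6low CD80neg, led by Krt14. Of these 9, 5 kept the call under every scaling that held them. Krt14 did not, with a limma adjusted p of 0.207 under median-of-ratios scaling. Pericyte and vascular smooth muscle markers were mixed on deposited TPM, with 3 of 6 tested lower and 2 higher. Under all 5 scalings the 3 lower calls were kept, and 0 of the higher calls were. The deposited TPM of the list summed to 60.2 and 42.1 in Itga6hi CD80pos, against 70.0 and 38.1 in Itga6low CD80neg. In that list Pdgfrb reached the highest single value, at 0.145 and 0.248 TPM in Itga6hi CD80pos, against 41.2 and 15.1 TPM in Itga6low CD80neg, and Higd1b was listed at 0 in 1 Itga6hi CD80pos library. The 2 higher ones were Mcam, at 28.9 and 21.7 TPM in Itga6hi CD80pos, against 6.69 and 6.94 TPM in Itga6low CD80neg, and Notch3, at 29.0 and 16.8 TPM in Itga6hi CD80pos, against 4.802 and 1.39 TPM in Itga6low CD80neg. Skeletal muscle markers were lower in 6 of 7 tested, at 8.38 and 14.4 TPM summed in Itga6hi CD80pos, against 131 and 66.9 TPM in Itga6low CD80neg, with Acta1 the highest at 40.2 TPM. Of those 6, Acta1, Ckm, Tnnt3, Actn3 and Myl1 were under 1 TPM in both Itga6hi CD80pos libraries, so they were tested only through Itga6low CD80neg. All 7 red blood cell markers were lower, led by Hbb-bs, with sums of 185 and 62.5 TPM in Itga6hi CD80pos, against 711095 and 504900 TPM in Itga6low CD80neg. Of myeloid markers 2 of 5 tested were lower, Ptprc and Lyz2, and both passed the filter only through Itga6low CD80neg. S100a9 was highest in that list and did not pass (adjusted p = 0.557), and the sums were 1078 and 747 TPM in Itga6hi CD80pos, against 595 and 2594 TPM in Itga6low CD80neg. Endothelial markers summed to 5.67 and 11.7 TPM in Itga6hi CD80pos, against 6.60 and 3.29 TPM in Itga6low CD80neg. Of the 2 tested, Vwf was higher, but it passed the filter only through Itga6hi CD80pos. Tek reached the highest single value of that list, at 0.182 and 0.200 TPM in Itga6hi CD80pos, against 6.05 and 0.937 TPM in Itga6low CD80neg, while Pecam1 stood at 2.34 and 5.84 TPM in Itga6hi CD80pos, against 0.253 and 2.03 TPM in Itga6low CD80neg (adjusted p = 0.0904). The platelet markers Gp9 and Treml1 were listed at 0 in all libraries, Itga2b was the only one tested and did not pass, and the list summed to 1.74 and 3.97 TPM in Itga6hi CD80pos, against 8.01 and 7.07 TPM in Itga6low CD80neg. The part of these cells in the lower Myl9, Cnn1 and Cnn3 was not tested.

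Genes with profiles most like those of Myh9 and Myl9 were found by the root mean square distance of log2(TPM + 1), centred over the 4 libraries. For Myh9 these were Lrp5, a Wnt co-receptor, at a distance of 0.0367, and, among the next 4, Atxn2l, Ep400 and Rnf44, the last at 0.0888. Lrp5 stood at 38.2 and 36.6 TPM in Itga6hi CD80pos, against 9.10 and 3.26 TPM in Itga6low CD80neg, so it too was lower in replicate 2 of Itga6low CD80neg. For Myl9 these were Coch, at 0.144, then Mmp11, a matrix metalloproteinase, C1qtnf2, Tnmd and Nnmt, the last at 0.223. Coch stood at 0.050 and 0.0391 TPM in Itga6hi CD80pos, against 30.5 and 49.0 TPM in Itga6low CD80neg.

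Reads shared with relatives could bear on some members. Of the 31-base stretches in GENCODE M21 transcripts of Cnn3, 32.0% also occur in transcripts of other genes, as do 27.0% of those of Tpm3 and 434 of the 2173 of Tpm4. The gene that shares most with Tpm3 is Tpm3-rs7, at 0.779 and 0.695 TPM in Itga6hi CD80pos, against 0.0304 and 0.640 TPM in Itga6low CD80neg. For Cnn3 it is Gm42928, listed at 0 and 0.00987 TPM in Itga6hi CD80pos, against 0.172 and 0.373 TPM in Itga6low CD80neg. For the other 7 members the share was between 0% in Cnn1 and 1.28% in Myh9. Tpm1 and Tpm2 share 9 such stretches with each other, so their ratio rests mostly on stretches of their own.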

How the data were processed

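Per the labels' protocols, polyA RNA taken up with a Zymo microprep kit went into NEBNext single-cell and low-input libraries. The submitters' processing notes name kallisto 0.44.0 and mm10. What was deposited is 1 TPM value per gene and library, computed by the authors; the annotation and how transcripts were summed are not given in the sources used here. A gene was tested if 2 or more libraries reached 1 TPM (13474 genes), as log2(TPM + 1), with limma 3.58.1 in R 4.3.3 (lmFit, eBayes with a trend), two-sided, at an adjusted p under 0.05, with 2 residual and 3.33 prior degrees of freedom. The test was checked on simulated data that lacked the shift of all genes seen here, so the check does not cover that shift. Median-of-ratios scaling used 9608 genes. Shares and ratios use TPM with no pseudocount. Coordinates and 31-base stretches are from GENCODE M21 (GRCm38), promoters from RefSeq. The members, lists and tests were chosen with earlier results of these data known. Named genes are the 10 members, their family partners, up to 4 called genes per pathway list by size, the highest gene of each cell type list and the 5 nearest profiles of 2 members; some of these are not reported here. Alternatives were other pseudocounts, filters, scalings, a fit without the trend, the replicate number as a block, summed rows and leaving out each library.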

Additional observations from a re-analysis of the deposited data

How the results depend on the processing

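The 10 members gave 4 calls higher and 3 lower. The higher calls were 0 and the lower calls 0 with no filter on low values, a setting in which limma called none of 55481 genes (0 higher, 0 lower), while 8434 had a higher and 1670 a lower value at an unadjusted p of at most 0.05. The higher calls were 0 under each of the 4 other scalings, where the lower calls stayed at 3. Leaving out 1 library gave 0 to 7 higher and 0 to 3 lower calls; the lone library of a group is then assumed to vary like the other group. The filter was also applied again to the 3 libraries left, a setting chosen after seeing the data. The log2 fold changes of the members still tested stayed the same. Without either Itga6hi CD80pos library limma then had infinite prior degrees of freedom. The variances came from the trend alone, so the calls of those fits are not read as support. Without either Itga6low CD80neg library Cnn1 did not pass that filter. Tpm1 reversed to -1.004 under median-of-ratios scaling, -0.74 under quantile normalization, -0.82 without haemoglobin genes and -0.59 without 4 gene classes. Cnn2 reversed to -0.82, -0.62, -0.64 and -0.42 in the same order, and Tpm4 to -0.16 under median-of-ratios scaling alone. The Myl9 share differed by -19.4 percentage points with Gm49909 counted as Myl12b, a choice made after seeing the data, against -31.8 points without it. Adding 1 TPM to each gene moved the Cnn1/Cnn3 log2 ratio to -0.92 from -5.44, since Cnn1 stood at only 0.112 and 0.0135 TPM in Itga6hi CD80pos. The cause of the reversed fold changes was not tested. The replicate numbers share no stated origin, and the difference between replicates correlated at 0.109 between the groups over genes. With the replicate block the members gave 4 calls higher and 3 lower. The prior degrees of freedom were infinite there too, so those calls rest on variances from the trend alone. A filter of at least 5 TPM on average removed Cnn1. Depth is unknown, so the counting error of the near-zero Cnn1 values could not be estimated.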
